A study of Rattus norvegicus with 12 samples.

Results

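The secreted Wnt proteins, the frizzled and LRP receptors that bind them, and the soluble antagonists of the SFRP and DKK families were followed in rat fat through a prolonged fast. They were chosen by gene symbol. The choice took every gene named Wnt, Fzd, Sfrp or Dkk followed by a digit, with Frzb (the secreted frizzled-related protein also called Sfrp3), Wif1, Lrp5 and Lrp6, that had a probe set naming 1 gene. This gave 37 of the 14506 genes tested, namely 17 ligands, 8 frizzled receptors, 2 LRP co-receptors, 5 secreted frizzled-related proteins, 4 Dickkopf proteins and Wif1, and each had a single probe set. Fzd7, Fzd10, Wnt7a and Wnt11 were not analysed here. The tissue was epididymal white fat of male Sprague-Dawley rats that were fed (4 rats), fasted until phase 2 (P2, 4 rats) or fasted until phase 3 (P3, 4 rats). All were males of 1 strain with no genetic change named in the labels, and neither age nor the length of the fasts was stated. P2 is known as the stage of a long fast that spares protein and burns fat, and P3 as the late stage in which protein loss speeds up. RNA of the whole fat pad of each rat was measured on 1 Affymetrix Rat Gene 1.0 ST array.

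Wnt proteins are lipid-modified ligands that bind a frizzled receptor on the cell surface. With LRP5 or LRP6 as co-receptor they stabilise beta-catenin, which then acts with TCF/LEF factors in the nucleus, and without it they act through routes that set cell polarity and movement. SFRP proteins and WIF1 bind Wnt proteins outside the cell, and Dickkopf proteins such as DKK1 and DKK2 bind the LRP co-receptors. In fat tissue, beta-catenin signalling is known to hold back the formation of adipocytes from progenitors.

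All values are log2 expression levels made by the authors, and a difference of 1 on this scale is a 2-fold difference. A gene was called where limma's Benjamini-Hochberg adjusted p over all 14506 genes was below 0.05. Apart from a mark of weak signal given below, levels of different genes were not compared, since each probe set has its own response. The adipocyte marker Adipoq, the adiponectin gene, was high on all arrays, with means of 13.15 in fed, 13.09 in P2 and 11.63 in P3 rats. Another adipocyte marker, the leptin gene Lep, averaged 11.24 in fed, 7.126 in P2 and 4.842 in P3 rats. One extraction note in the labels names liver, and 8 of 12 hepatocyte markers stayed below a level of 5.658, the 95th percentile of 53 olfactory receptor genes. That level is used here as a mark of weak signal because detection calls were not used. The mark is rough, since probe sets differ in their response. The albumin gene Alb was above it in most rats, with means of 8.327 in fed, 9.622 in P2 and 6.733 in P3 rats. The fed, P2 and P3 means of Tf (11.12, 10.62 and 10.18) and Fgg (6.035, 6.393 and 6.58) were also above it. Apoa1 lay near it, at 5.645, 5.762 and 5.7. The array of P3 rat 3 stood apart over the 14506 genes tested. Its lower quartile over these genes was 5.161, against 4.846 to 4.987 on the other 11 arrays. Its upper quartile was 8.343, against 8.419 to 8.54. Quartiles over all probe sets were not taken. That array gave the highest of the 12 values for 12 of the 17 ligands. The calls of members and the counts of gene lists that differ without it are therefore given beside them.

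The promoter windows of 5 of the genes described below are shown, because these genes stood for the main patterns. Wnt5a (chr16:3703415-3703714, plus strand), Sfrp2 (chr2:171387286-171387585, plus strand) and Fzd4 (chr1:152692257-152692556, plus strand) were lowest in P3. Frzb (chr3:85772047-85772346, minus strand) and Fzd1 (chr4:30264824-30265123, plus strand) were highest in P2. Each window runs from 250 bases before to 50 bases after the RefSeq start in build GRCr8, in the direction of the gene, with every CG dinucleotide in capitals.
Wnt5a: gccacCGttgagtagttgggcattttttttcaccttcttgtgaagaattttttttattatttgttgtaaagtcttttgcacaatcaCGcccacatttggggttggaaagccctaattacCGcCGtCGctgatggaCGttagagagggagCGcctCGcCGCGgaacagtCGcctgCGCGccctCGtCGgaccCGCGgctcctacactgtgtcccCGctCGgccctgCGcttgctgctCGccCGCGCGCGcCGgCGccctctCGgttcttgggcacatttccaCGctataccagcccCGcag
Sfrp2: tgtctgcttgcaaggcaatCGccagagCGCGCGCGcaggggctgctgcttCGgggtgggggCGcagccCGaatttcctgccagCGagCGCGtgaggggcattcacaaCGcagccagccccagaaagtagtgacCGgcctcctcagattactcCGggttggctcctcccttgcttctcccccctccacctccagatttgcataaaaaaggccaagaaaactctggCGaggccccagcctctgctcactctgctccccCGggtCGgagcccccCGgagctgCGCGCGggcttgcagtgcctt
Fzd4: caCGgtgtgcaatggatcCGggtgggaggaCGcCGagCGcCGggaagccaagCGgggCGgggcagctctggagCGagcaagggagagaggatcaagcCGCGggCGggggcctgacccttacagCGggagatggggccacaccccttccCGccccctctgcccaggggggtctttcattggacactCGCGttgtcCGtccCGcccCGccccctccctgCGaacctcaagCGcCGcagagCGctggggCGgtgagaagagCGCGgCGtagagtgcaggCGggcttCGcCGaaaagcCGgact
Frzb: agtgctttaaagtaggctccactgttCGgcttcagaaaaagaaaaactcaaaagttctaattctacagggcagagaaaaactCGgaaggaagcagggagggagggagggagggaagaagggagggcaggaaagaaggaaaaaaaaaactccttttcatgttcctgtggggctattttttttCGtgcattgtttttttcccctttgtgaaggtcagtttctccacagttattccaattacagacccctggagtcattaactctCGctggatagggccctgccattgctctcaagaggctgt
Fzd1: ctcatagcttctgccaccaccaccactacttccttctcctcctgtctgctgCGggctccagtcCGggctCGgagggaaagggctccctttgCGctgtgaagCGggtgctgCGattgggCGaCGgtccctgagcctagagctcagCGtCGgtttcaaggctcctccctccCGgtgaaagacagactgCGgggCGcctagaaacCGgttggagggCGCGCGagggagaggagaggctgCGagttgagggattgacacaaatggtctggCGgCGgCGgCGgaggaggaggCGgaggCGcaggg

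Such a window was available here for 24 of the 37 genes. They held a median of 25.5 CG dinucleotides, against 7 in all 33469 windows, and a median GC content of 66.2%, against 51.7%. The full set of windows was not filtered by gene type or limited to the genes tested. It is therefore not a matched set, here or for the motifs below. Frzb was the poorest in both, with 4 CG dinucleotides and 45.3% GC, whereas Wnt5a held 30, Fzd4 31, Fzd1 24 and Sfrp2 21. A GC box (GGGCGG on either strand) was found in 13 of the 24 windows, or 54.2%, against 33.1% of all windows, with 6 matches in Fzd4 and none in the other 4 shown. A TCF/LEF core (CTTTG followed by AA, AT, TA or TT, either strand) was found in 16.7% of the members' windows, those of Dkk1, Sfrp5, Wnt3 and Wnt8a, and in 17.1% of all windows. These are matches of letters only.

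Of the 17 ligands none rose and 1 fell in P2 against fed rats, 4 rose and 2 fell in P3 against fed rats, and none rose and 2 fell in P3 against P2 rats. Over all genes 9.66% were called higher and 15.5% lower in the first comparison, 21.1% and 24.3% in the second and 12.8% and 15.1% in the third. Without P3 rat 3, 1 ligand rose and 1 fell in P2 against fed rats, 2 rose and 3 fell in P3 against fed rats, and none rose and 3 fell in P3 against P2 rats. The rise then called in P2 was that of Wnt9b, at 0.20 (adjusted p = 0.0324, against 0.147 with all rats and up to 0.306 over the alternatives). Wnt5a, which signals mainly without beta-catenin and is known to be made by stromal and immune cells of fat, measured 8.12, 8.29, 8.27 and 8.34 in the 4 fed rats. It measured 7.88, 7.5, 7.55 and 7.65 in P2 rats and 5.92, 6.0, 6.08 and 5.65 in P3 rats. The groups did not overlap at any stage. P2 rats were lower than fed rats by a log2 difference of -0.61 ± 0.107 (SE, adjusted p = 8.09e-04), P3 rats lower than fed rats by -2.34 ± 0.107 (adjusted p = 1.08e-09), which left 19.7% of the fed level, and P3 rats lower than P2 rats by -1.73 ± 0.107 (adjusted p = 9.98e-08). The later step, P3 minus P2, exceeded the earlier step, P2 minus fed, by -1.12 ± 0.185 (adjusted p = 0.00152). In whole tissue, fewer cells of a type and less RNA per cell cannot be told apart.

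Wnt2b, a ligand of the beta-catenin route, measured 7.73, 7.64, 7.05 and 7.32 in fed rats, 7.27, 7.08, 6.70 and 7.33 in P2 rats and 6.68, 6.52, 6.23 and 6.14 in P3 rats. P2 and fed rats overlapped (-0.34 ± 0.174, adjusted p = 0.186), while every P3 rat lay below every rat of the other groups. P3 rats were lower than fed rats by -1.04 ± 0.174 (adjusted p = 1.88e-04) and than P2 rats by -0.70 ± 0.174 (adjusted p = 0.00731). Wnt5b, the closest relative of Wnt5a, averaged 5.501 ± 0.28 in P3 and 5.823 ± 0.0422 in fed rats (SD, n = 4 each), a difference of -0.32 ± 0.13 that was not called (limma adjusted p = 0.057). Without P3 rat 3 it was called, at -0.44 (adjusted p = 0.00524), as it was without P2 rat 4, with quantile normalisation and with cyclic loess normalisation, with a range of adjusted p from 0.00524 to 0.294 over the alternatives. Its fall in P3 against P2 rats was also called without P3 rat 3 (-0.33, adjusted p = 0.0406).

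The 4 ligands called higher in P3 than in fed rats differed little. Wnt9b averaged 6.568 ± 0.207 in P3 and 6.188 ± 0.0898 in fed rats (SD, n = 4 each), a difference of 0.38 ± 0.0962 (limma adjusted p = 0.00491), and its call held in all 20 alternatives. Wnt6 differed by 0.31 ± 0.107 (adjusted p = 0.029), Wnt8b by 0.28 ± 0.0907 (adjusted p = 0.0214) and Wnt16 by 0.22 ± 0.0834 (adjusted p = 0.0469). P3 rat 3 was the highest array for all 4 of them. Without that rat Wnt9b and Wnt8b kept their call, whereas Wnt6 (0.23, adjusted p = 0.0823) and Wnt16 (0.17, adjusted p = 0.112) lost it. The Wnt6 call also ended without fed rat 1 and in a fit of only these groups, the Wnt8b call with cyclic loess normalisation and without fed rat 1, 3 or 4 (adjusted p up to 0.0758 over the alternatives) and the Wnt16 call in 12 of 19 alternatives (adjusted p up to 0.199), among them without fed rat 2, 3 or 4, P2 rat 1 or 4, or P3 rat 1, 3 or 4. Wnt8b and Wnt16 stayed below the weak-signal mark of 5.658 in every group, as did Wnt1, Wnt3, Wnt3a, Wnt8a and Wnt10b.

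The remaining 10 ligands beside Wnt5b passed in no comparison, with P3 minus fed differences between -0.08 (Wnt2) and 0.35 (Wnt9a, adjusted p = 0.0514, called in 7 of 19 alternatives). The interval of Wnt10b, a ligand known in mice to restrain adipocyte formation, for P3 minus fed ran from -0.33 to 0.24 around a weak signal. In the rat genome 4 pairs of these ligands are direct neighbours with no protein-coding gene between them (RefSeq, GRCr8), namely Wnt3a and Wnt9a, Wnt9b and Wnt3, Wnt10b and Wnt1, and Wnt6 and Wnt10a. In P3 minus fed the called Wnt9b stood beside Wnt3 at 0.05 ± 0.142, and the called Wnt6 beside Wnt10a at -0.01 ± 0.142. Neither neighbour was called, and the difference between neighbours was not tested.

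**Figure D1:**
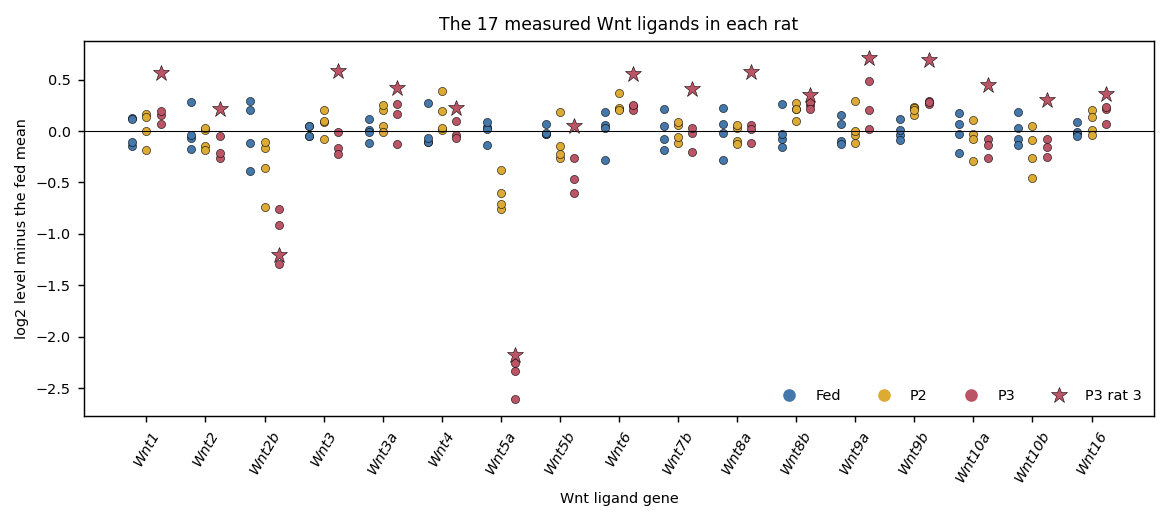
Log2 level of each of the 17 ligands in each rat minus the fed mean of that ligand (vertical axis), by ligand, with fed, P2 and P3 rats as coloured points and P3 rat 3 as a star. Wnt5a and Wnt2b lie lowest in P3 rats, and the star is the highest point for 12 ligands.

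The receptors took different courses. Fzd4, a frizzled that also serves the ligand Norrin in vessels, measured 11.14, 11.06, 11.04 and 10.89 in fed rats, 11.14, 11.02, 10.52 and 10.80 in P2 rats and 9.68, 9.61, 9.32 and 9.46 in P3 rats. Fed and P2 rats overlapped (-0.16 ± 0.125, adjusted p = 0.417), and all P3 rats lay below both. The P3 level was 35% of the fed level (-1.52 ± 0.125, adjusted p = 2.49e-07) and 39% of the P2 level (-1.36 ± 0.125, adjusted p = 3.23e-06). The later step differed from the earlier by -1.20 ± 0.217 (adjusted p = 0.00274).

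Fzd1, a receptor of the beta-catenin route, was highest in the middle stage. It measured 6.52, 6.28, 6.93 and 6.72 in fed rats, 7.52, 8.0, 7.93 and 7.73 in P2 rats and 7.12, 6.75, 6.70 and 6.82 in P3 rats, so that P2 rats overlapped with neither group. P2 rats were 2.27-fold above fed rats (1.18 ± 0.146, adjusted p = 5.31e-05), and P3 rats were below P2 rats by -0.95 ± 0.146 (adjusted p = 2.49e-04). The P3 minus fed difference of 0.24 ± 0.146 was not called (adjusted p = 0.203), although it was with arrays centred on their medians (0.39, adjusted p = 0.032) and with quantile normalisation.

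Fzd2 measured 7.55, 7.84, 7.54 and 7.61 in fed rats, 7.74, 7.40, 7.59 and 7.68 in P2 rats and 6.90, 7.07, 6.96 and 7.17 in P3 rats. P3 rats lay below all others, by -0.61 ± 0.0989 from fed (adjusted p = 1.39e-04) and -0.58 ± 0.0989 from P2 rats (adjusted p = 5.60e-04). Fzd6, which is known for planar cell polarity, measured 8.59, 8.49, 8.37 and 8.19 in fed rats, 8.78, 8.80, 8.63 and 8.42 in P2 rats and 8.46, 8.17, 7.83 and 7.97 in P3 rats. P3 rats were lower than P2 rats, by -0.55 ± 0.135 (adjusted p = 0.00712), with P3 rat 1 inside the P2 range. The P3 minus fed difference of -0.30 was not called (adjusted p = 0.0843).

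Fzd8 measured 7.69, 7.56, 7.78 and 8.33 in fed rats, 8.17, 7.42, 8.07 and 7.44 in P2 rats and 7.44, 7.19, 6.69 and 7.29 in P3 rats. P3 rats were lower than fed rats by -0.69 ± 0.211 (adjusted p = 0.0157), a call that ended without fed rat 4 or P3 rat 3 (adjusted p up to 0.0566). The call against P2 rats (-0.62 ± 0.211, adjusted p = 0.0413) ended in 10 of 20 alternatives (adjusted p up to 0.13), among them without fed rat 1 or 3, P2 rat 1 or 3, or P3 rat 2, 3 or 4. Fzd3, Fzd5 and Fzd9 were called in no comparison, and without P3 rat 3 Fzd3 was called higher in P3 than in fed rats (0.39, adjusted p = 0.014).

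The co-receptors Lrp5 and Lrp6 parted. Lrp6 measured 9.38, 9.57, 9.36 and 9.26 in fed rats, 10.46, 9.99, 9.99 and 9.90 in P2 rats and 10.07, 9.77, 9.58 and 9.76 in P3 rats, and every fasted rat exceeded every fed rat. P2 rats were higher than fed rats by 0.69 ± 0.13 (adjusted p = 0.00133). The P3 rise of 0.40 ± 0.13 (adjusted p = 0.021) lost its call without fed rat 4 or P3 rat 1 (adjusted p up to 0.0667). Lrp5 measured 7.77, 7.83, 7.84 and 7.80 in fed rats, 8.13, 7.93, 7.90 and 7.93 in P2 rats and 7.63, 7.32, 7.22 and 7.31 in P3 rats. P2 rats lay above fed rats without overlap, but by 0.16 ± 0.092 only, which was not called (adjusted p = 0.24). P3 rats lay below both, by -0.44 ± 0.092 from fed (adjusted p = 0.00127) and -0.60 ± 0.092 from P2 rats (adjusted p = 2.41e-04). For each co-receptor the later step differed from the earlier, by -0.76 ± 0.159 for Lrp5 (adjusted p = 0.0066) and -0.98 ± 0.225 for Lrp6 (adjusted p = 0.0109).

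The secreted frizzled-related proteins split between a rise in P2 and a fall in P3. Sfrp2 measured 7.07, 7.37, 8.14 and 7.29 in fed rats, 7.60, 7.16, 7.06 and 7.06 in P2 rats and 5.75, 5.64, 5.36 and 5.10 in P3 rats. Sfrp4, which human studies tie to insulin secretion and visceral fat, measured 7.42, 7.61, 7.97 and 7.04 in fed rats, 7.01, 6.72, 7.41 and 6.87 in P2 rats and 4.97, 5.45, 5.44 and 5.32 in P3 rats. For both genes fed and P2 rats overlapped and all P3 rats lay more than 1 log2 unit below. P3 rats were 4.02-fold lower than fed rats in Sfrp2 (-2.01 ± 0.21, adjusted p = 2.50e-06) and 4.65-fold lower in Sfrp4 (-2.22 ± 0.187, adjusted p = 3.04e-07). Against P2 rats the falls were -1.76 ± 0.21 (adjusted p = 2.83e-05) and -1.71 ± 0.187 (adjusted p = 1.35e-05). The P3 means, 5.461 and 5.294, were below the weak-signal mark, so these folds are not exact. In P2 against fed rats, Sfrp2 was not called (-0.24, adjusted p = 0.461), nor was Sfrp4 (-0.51, adjusted p = 0.0609), which was called in 4 of 20 alternatives.

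Frzb went the other way. It measured 8.27, 8.33, 7.93 and 7.34 in fed rats, 9.83, 9.26, 9.64 and 9.71 in P2 rats and 9.42, 9.17, 8.34 and 9.01 in P3 rats. Every fasted rat exceeded every fed rat, with P3 rat 3 close to the highest fed rat. P2 rats were 3.12-fold above fed rats (1.64 ± 0.236, adjusted p = 1.82e-04) and P3 rats 2.02-fold above them (1.01 ± 0.236, adjusted p = 0.00271). The P3 minus P2 difference of -0.63 ± 0.236 was not called (adjusted p = 0.0639), and 6 of 20 alternatives did call it. The later step differed from the earlier by -2.27 ± 0.409 (adjusted p = 0.00267).

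Sfrp1 measured 8.37, 8.43, 7.73 and 8.16 in fed rats, 8.38, 7.97, 8.26 and 8.36 in P2 rats and 7.84, 7.77, 6.56 and 7.61 in P3 rats, with P3 rat 3 the lowest. P3 rats were lower than fed rats by -0.73 ± 0.24 (adjusted p = 0.0226) and than P2 rats by -0.80 ± 0.24 (adjusted p = 0.0224). The first call ended without fed rat 1 or 2 (adjusted p up to 0.0643) and the second without P2 rat 1 or 4 (adjusted p up to 0.0595), and without P3 rat 3 both held at smaller sizes, -0.43 (adjusted p = 0.0362) from fed and -0.50 (adjusted p = 0.028) from P2 rats. Sfrp5, an antagonist of Wnt5a in mouse fat, averaged 6.188 ± 0.188 in P2 and 5.708 ± 0.0979 in fed rats (SD, n = 4 each), with no overlap. It was higher in P2 by 0.48 ± 0.112 (limma adjusted p = 0.00582) and in P3 at 0.28 ± 0.112 (adjusted p = 0.0547, not called, between 0.00576 and 0.157 over the alternatives, of which 8 called it).

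Wif1, a secreted inhibitor that binds Wnt proteins, measured 5.33, 4.95, 5.18 and 5.25 in fed rats, 5.56, 5.88, 5.80 and 5.36 in P2 rats and 5.16, 5.12, 5.26 and 5.0 in P3 rats. It was higher in P2 than in fed rats by 0.47 ± 0.118 (adjusted p = 0.00877) and lower in P3 than in P2 rats by -0.51 ± 0.118 (adjusted p = 0.0047). Its group means stayed below the weak-signal mark, so only the order of the groups can be read.

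Dkk3 and Dkk2 moved apart. Dkk3, a divergent member of its family that does not bind the LRP co-receptors in the manner of DKK1, measured 7.51, 7.70, 7.10 and 7.24 in fed rats, 8.53, 7.97, 8.33 and 8.21 in P2 rats and 8.44, 8.51, 8.65 and 8.65 in P3 rats. All fasted rats exceeded all fed rats. The rises were 0.87 ± 0.136 in P2 (adjusted p = 3.38e-04) and 1.18 ± 0.136 in P3 (adjusted p = 6.46e-06), while P3 and P2 rats overlapped (0.30 ± 0.136, adjusted p = 0.117). Dkk2 measured 7.68, 7.68, 7.69 and 7.31 in fed rats, 7.15, 6.28, 6.78 and 6.81 in P2 rats and 6.95, 7.41, 6.92 and 7.31 in P3 rats. P2 rats were lower than fed rats by -0.83 ± 0.168 (adjusted p = 0.00213) without overlap. The P3 fall of -0.44 ± 0.168 (adjusted p = 0.0441) ended in 11 of 20 alternatives (adjusted p up to 0.151), among them centred arrays and leaving out fed rat 1, 2 or 3, P2 rat 3 or 4, or P3 rat 1 or 3. Dkk2 was the 1 member whose later step was higher than its earlier step, by 1.22 ± 0.29 (adjusted p = 0.0136), a call that ended without P2 rat 2 (adjusted p = 0.0508). Dkk1 and Dkk4 had weak signal and were called in no comparison.

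**Figure D2:**
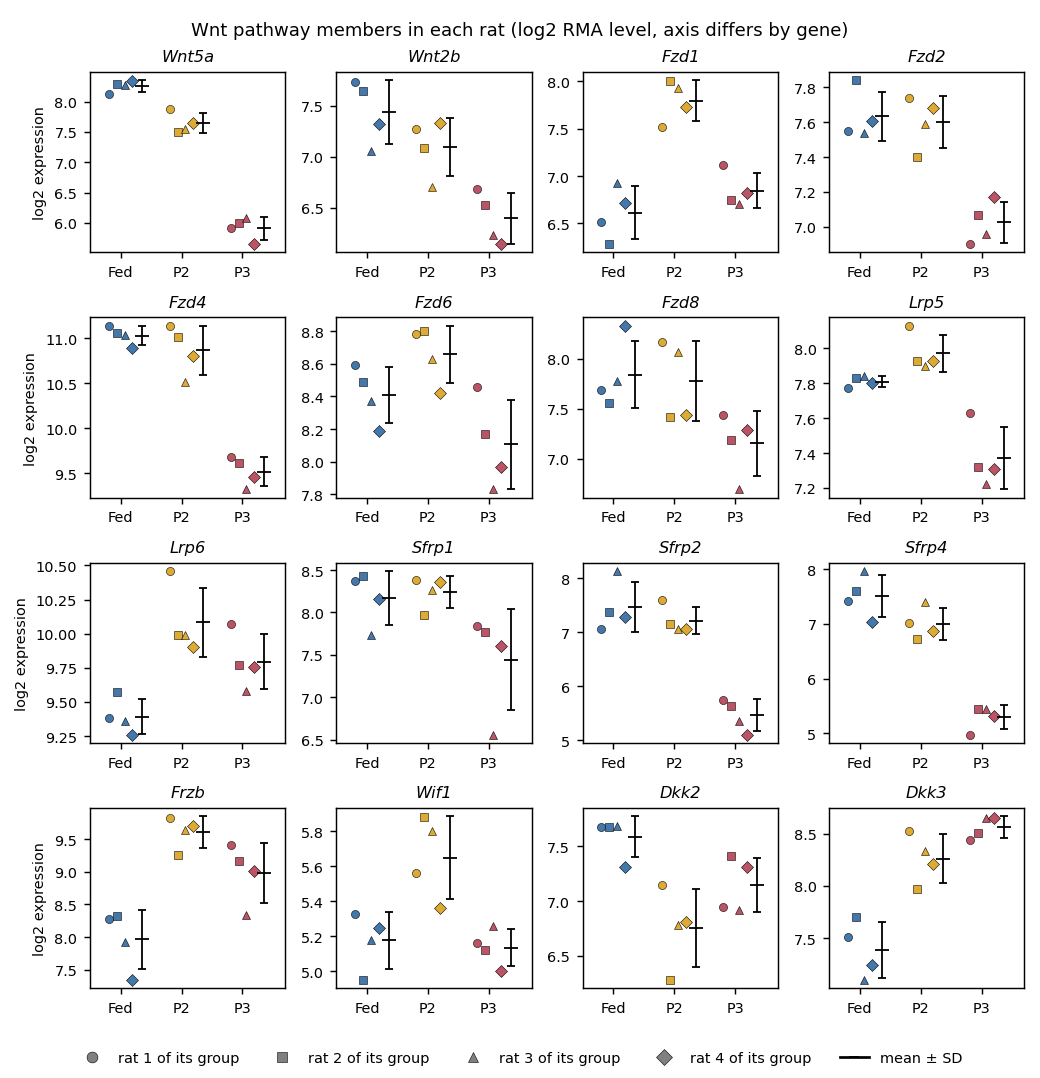
Log2 level (vertical axes, each with its own range) of 16 called genes in fed, P2 and P3 rats. Each marker is a rat, and the bar to the right of each group is the mean with its SD. Wnt5a, Fzd4, Sfrp2 and Sfrp4 lie lowest in P3 rats, Fzd1 highest in P2 rats, and Frzb, Lrp6 and Dkk3 higher in both fasted groups than in fed rats.

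Over all 37 genes, 6 rose and 2 fell in P2 against fed rats, or 21.6%, where 25.2% of all 14506 genes were called. In P3 against fed rats 7 rose and 10 fell, or 45.9%, where 45.4% of all genes were called. In P3 against P2 rats 12 fell and none rose, or 32.4%, where 27.9% of all genes were called, 12.8% as higher and 15.1% as lower. By range, 9 genes lay above and 2 below without overlap in P2 against fed rats. Of all genes 12.6% lay above and 18.4% below, or 31% either way. In P3 against fed rats 6 lay above and 8 below, where 19.2% of all genes lay above and 22.7% below (41.9%). In P3 against P2 rats 1 lay above and 10 below, where 12.4% of all genes lay above and 14% below (26.3%). The number called was near that of genes at large in the first 2 comparisons. At an unadjusted p below 0.05, 3 members were higher in P3 than in P2 rats, and with arrays centred on their medians 4 were called higher. The members' median differences were 0.069, 0.051 and -0.004 in the 3 comparisons, against 0.007, 0.053 and 0.033 over all genes. Without P3 rat 3 the members' medians were -0.082 in P3 against fed rats and -0.1 in P3 against P2 rats, and 6 members rose and 9 fell in P3 against fed rats. The medians over all genes without that rat were not taken, so these medians have no matching baseline. The 3 comparisons share groups of rats, so their counts are not independent.

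The contrast between the later and the earlier step was called for 12 of the 37 genes, or 32.4%, against 12.6% of all genes. For 11 of these the later step was the lower one, against 5.71% of all genes called in that direction. They were Wnt5a, Fzd1, Fzd4, Fzd6, Lrp5, Lrp6, Sfrp2, Sfrp4, Sfrp5, Frzb and Wif1. Some of these had risen in P2 and were then lower (Fzd1, Wif1), and others had changed little in P2 before they fell (Fzd4, Sfrp2). Leaving out 1 rat at a time gave between 8 and 12 such genes. The calls of Fzd6 and Sfrp5 ended in 6 of 19 and 7 of 18 alternatives (adjusted p up to 0.13 and 0.124). Both ended without fed rat 3 or 4, P2 rat 2 or 3, or P3 rat 4, that of Fzd6 also without P2 rat 1, and that of Sfrp5 also without P2 rat 4 or P3 rat 2. The call ended for Sfrp2 without P2 rat 1 (adjusted p = 0.066) and for Sfrp4 without P2 rat 1 or 3 (adjusted p up to 0.0999).

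**Figure D3:**
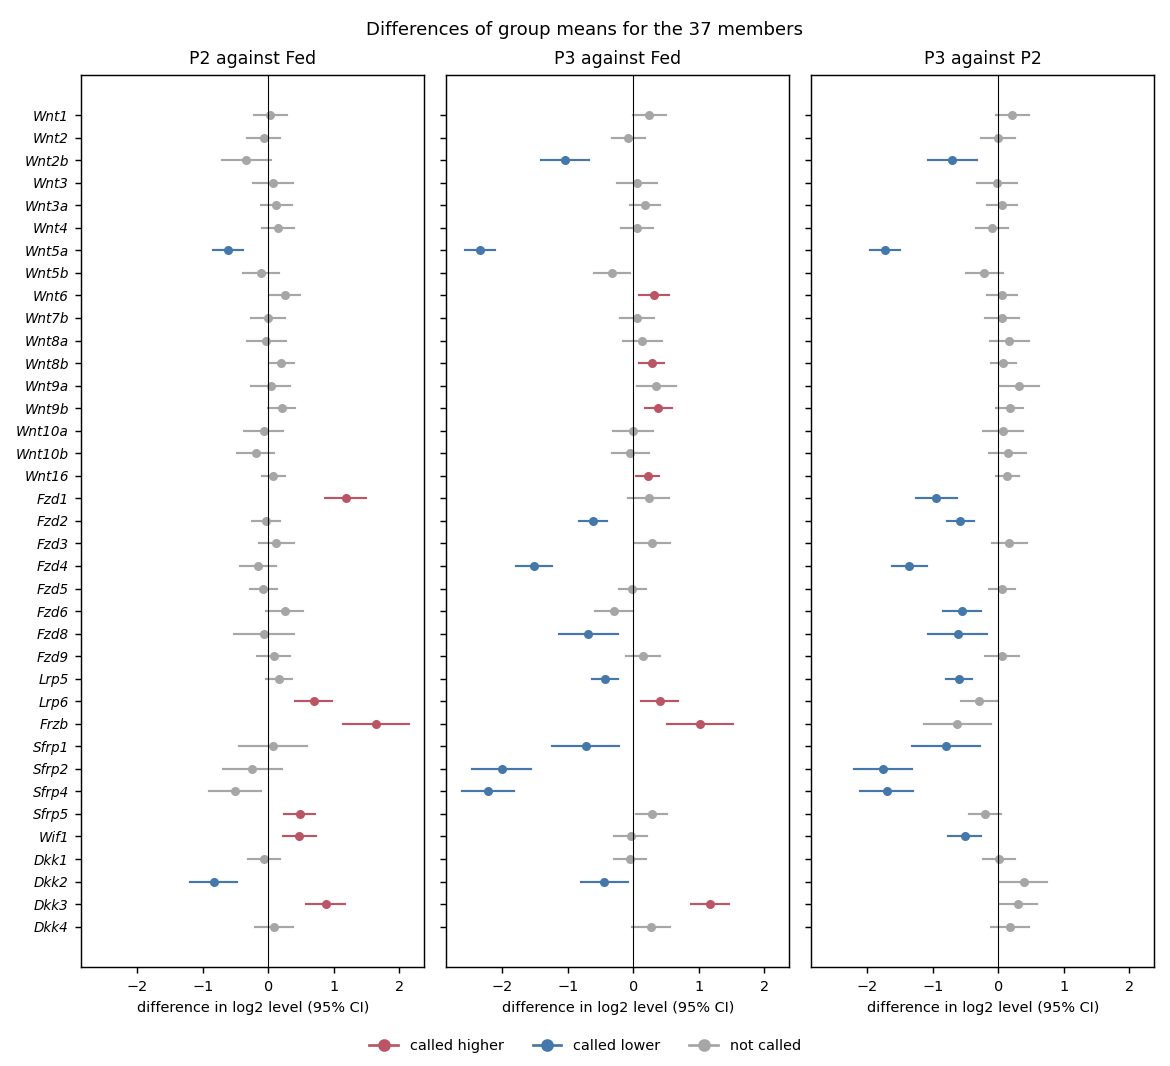
Difference of group means in log2 units (horizontal axis) with its 95% confidence interval for each of the 37 genes, in P2 against fed, P3 against fed and P3 against P2. Red points were called higher, blue points lower and grey points not at all. In the third panel 12 genes are blue and none is red.

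The rest of the pathway was measured with lists that were also chosen with earlier results of these data known. Their counts stand against 25.2% of all genes called in P2 and 45.4% in P3 against fed rats, and nothing is called particular to a list from them. Wls, the carrier that brings Wnt proteins to the cell surface, measured 10.84, 10.87, 10.83 and 10.81 in fed rats, 10.58, 10.38, 10.45 and 10.49 in P2 rats and 10.14, 10.11, 9.72 and 9.89 in P3 rats. The 3 groups did not overlap, with falls of -0.36 ± 0.0928 in P2 (adjusted p = 0.0109) and -0.87 ± 0.0928 in P3 against fed rats (adjusted p = 3.06e-06). Porcn, the enzyme that attaches the lipid, was not called (0.11 ± 0.0889 in P3 minus fed, adjusted p = 0.34). Of 10 measured R-spondins and other secreted modulators, 1 rose and 4 fell in P3 against fed rats, where 21.1% of all genes rose and 24.3% fell. The rise, that of Sostdc1 (0.27, adjusted p = 0.046), was lost without P3 rat 3, which left none higher and 4 lower. R-spondins raise the number of frizzled and LRP receptors on the cell, and Rspo3 fell by -1.51 ± 0.117 (adjusted p = 1.30e-07) and Rspo1 by -1.04 ± 0.135 (adjusted p = 1.99e-05). Cthrc1, a secreted collagen triple helix protein that binds Wnt and frizzled proteins, fell by -2.09 ± 0.196, and Kremen1, a receptor for Dickkopf proteins, by -0.61 ± 0.105.

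RNA of the beta-catenin gene, Ctnnb1, averaged 10.29 in fed, 10.23 in P2 and 10.29 in P3 rats, and none of its differences was called (limma adjusted p = 0.993 in P3 against fed, 95% CI -0.18 to 0.18). The level of the beta-catenin protein was not measured. In a list of 14 genes that joins the complex that degrades it with Ctnnb1 itself and the Dishevelled genes, 3 rose and 2 fell in P3 against fed rats, or 35.7%, against 45.4% of all genes. The kinase Csnk1e rose by 0.64 ± 0.08, the related Csnk1d by 0.46 ± 0.0924 and the scaffold Axin1 by 0.41 ± 0.0953. The kinase Gsk3b of the same list was lower, with means of 10.12 in fed and 9.734 in P3 rats and no overlap. Axin2, a scaffold that is itself a widely used target of beta-catenin, measured 7.14, 7.38, 7.78 and 7.28 in fed rats, 6.78, 6.87, 6.55 and 6.93 in P2 rats and 6.50, 6.26, 6.76 and 6.48 in P3 rats. All fasted rats lay below all fed rats, at -0.61 ± 0.14 in P2 (adjusted p = 0.00504) and -0.90 ± 0.14 in P3 (adjusted p = 1.06e-04).

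Of 14 measured target genes of beta-catenin, 1 rose and 3 fell in P2 and 1 rose and 4 fell in P3 against fed rats, or 28.6% and 35.7%, where 25.2% and 45.4% of all genes were called. Those called beside Axin2 included Ccnd1, the cyclin D1 gene, at -1.12 in P2 and -2.74 in P3, and Cd44, a hyaluronan receptor, at -0.78 and -1.35. Both are also regulated by other pathways. Ccn5, a matricellular protein, rose by 0.78 in P2 and was near the fed level in P3 (0.15, adjusted p = 0.395). The target that rose in P3 was Myc, a growth-promoting transcription factor, at 0.70 ± 0.185 against fed (adjusted p = 0.00612) and 0.77 ± 0.185 against P2 rats (adjusted p = 0.00637). Myc and Sostdc1 lie outside the naming rule and were chosen after their values were seen. Lef1 (0.05), Tcf7 (0.01) and Tcf7l1 (0.00) were not called in P3 against fed rats, and Tcf7l2 was not analysed here. Of 13 TCF/LEF factors and partners, 1 rose and 3 fell in P3 against fed rats, or 30.8%, and without P3 rat 3 the numbers were 3 and 3. Tle1, a corepressor, rose by 0.63 ± 0.16 and Bcl9l, a coactivator, fell by -0.73 ± 0.0807, while Cby1 and Ctnnbip1, which both bind beta-catenin and restrain it, fell by -1.21 ± 0.0932 and -0.32 ± 0.111.

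**Figure D4:**
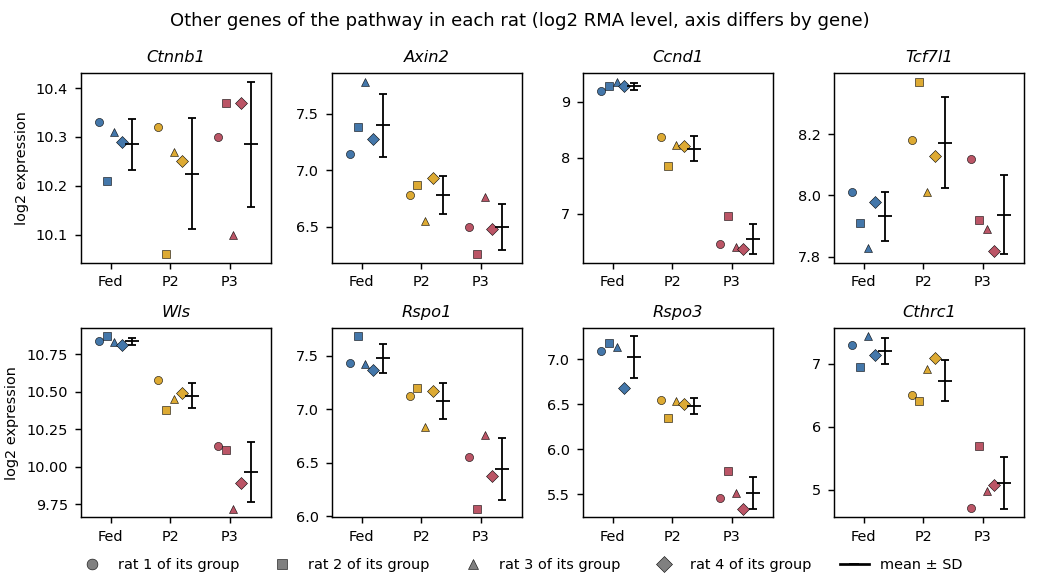
Log2 level (vertical axes, each with its own range) of beta-catenin (Ctnnb1), targets, a TCF factor, the Wnt carrier Wls and secreted modulators in fed, P2 and P3 rats. Each marker is a rat and the bar is the mean with its SD. Ctnnb1 lies between 10.06 and 10.37 on all arrays, while Axin2, Ccnd1, Wls, Rspo1 and Rspo3 lie lower in P3 than in fed rats.

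Of 16 genes of planar polarity and other routes without beta-catenin, 2 rose and 1 fell in P2 and 2 rose and 5 fell in P3 against fed rats. That made 18.8% and 43.8%, against 25.2% and 45.4% of all genes, and without P3 rat 3 the numbers were 2 and 2 in P2 and 2 and 4 in P3. Nfatc4, a calcium-dependent transcription factor, was highest in P2, at 0.78 ± 0.0849 in P2 minus fed (adjusted p = 1.88e-05) and -0.88 ± 0.0849 in P3 minus P2 (adjusted p = 4.92e-06). In P3 minus fed the polarity gene Vangl1 was at -0.45 ± 0.0919, the GTPase gene Rhoa at -0.39 ± 0.0673 and Prickle1 at 0.41 ± 0.083, all called. Of 10 other receptors and co-receptors none rose and 2 fell in P3, namely Ptk7, a pseudokinase of the polarity route (-0.81 ± 0.11), and the proteoglycan Sdc1 (-0.38 ± 0.0817). The glypican Gpc4 fell in P2 by -0.60 ± 0.146 and was 0.95 ± 0.146 higher in P3 than in P2 rats.

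Markers of several cell types moved with the groups, and their part in the changes above was not tested. Against fed rats, 9.66% of all genes were called higher and 15.5% lower in P2, and 21.1% and 24.3% in P3. Of 15 fibroblast and progenitor markers 1 rose and 5 fell in P2 and 2 rose and 12 fell in P3 against fed rats, with a median of -2.02 in P3, near the differences of Wnt5a, Sfrp2 and Sfrp4. The mean level of that list was 9.83 to 9.97 in fed, 9.30 to 9.64 in P2 and 8.25 to 8.76 in P3 rats. Thy1 (-2.38), Col3a1 (-2.93) and Dpp4 (-2.13) had its smallest adjusted p in P3 against fed rats. Pdgfrb went the other way, with means of 9.486 in fed and 10.2 in P3 rats, as did Dcn, at 12.43 and 12.86. Pdgfrb and Dcn lie outside the naming rule and were chosen after their values were seen. Of 8 mesothelial markers 6 fell in P3, among them Msln (-1.97), and the list's mean was 7.33 to 7.78 in P3 and 8.51 to 8.75 in fed rats. Of 11 adipocyte markers 10 fell in P3 and none rose, with a list mean of 9.46 to 10.30 in P3 and 11.52 to 11.60 in fed rats.

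Most smooth muscle markers rose, whereas the pericyte markers Cspg4 and Rgs5 of the same list did not. Of 10 genes 8 rose and 1 fell in P2, with the list mean at 9.39 to 10.23 in P2 and 8.65 to 9.15 in fed rats, and 7 rose and 1 fell in P3, at 9.15 to 9.76. Among the genes that rose, Myh11 was at 1.71 in P2 and 1.93 in P3. The gene that fell was the pericyte marker Cspg4, at -0.64 in P2 and -1.40 in P3 against fed rats (adjusted p = 0.00206 and 6.85e-07). Rgs5, another pericyte marker, averaged 11.36 in fed, 11.31 in P2 and 10.86 in P3 rats and was not called (adjusted p = 0.0625 in P3 against fed). It was also named after its values were seen. Endothelial markers rose in 8 of 11 cases in P2 and 6 of 11 in P3, with Pecam1 at 0.69 and 1.08. Fzd4, a receptor known from endothelium, fell in P3. The adipocyte, fibroblast and mesothelial lists also fell there, with medians of -1.52, -2.02 and -1.065 against fed rats. In P2 against fed rats their medians were -0.03, -0.43 and -0.54. The cell source of Fzd4 was not tested. Of 13 macrophage markers 4 rose and 4 fell in P3, and of 12 T and NK cell markers none rose and 4 fell. Of 12 epididymis and testis markers, 10 of which had weak signal, 5 rose in P3 (3 without P3 rat 3). Without P3 rat 3, fibroblast markers numbered 2 higher and 12 lower, mesothelial markers 0 and 6, endothelial markers 7 and 0 and macrophage markers 4 and 3 in P3 against fed rats. In P2 against fed rats fibroblast markers then numbered 1 and 8 and endothelial markers 9 and 0.

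**Figure D5:**
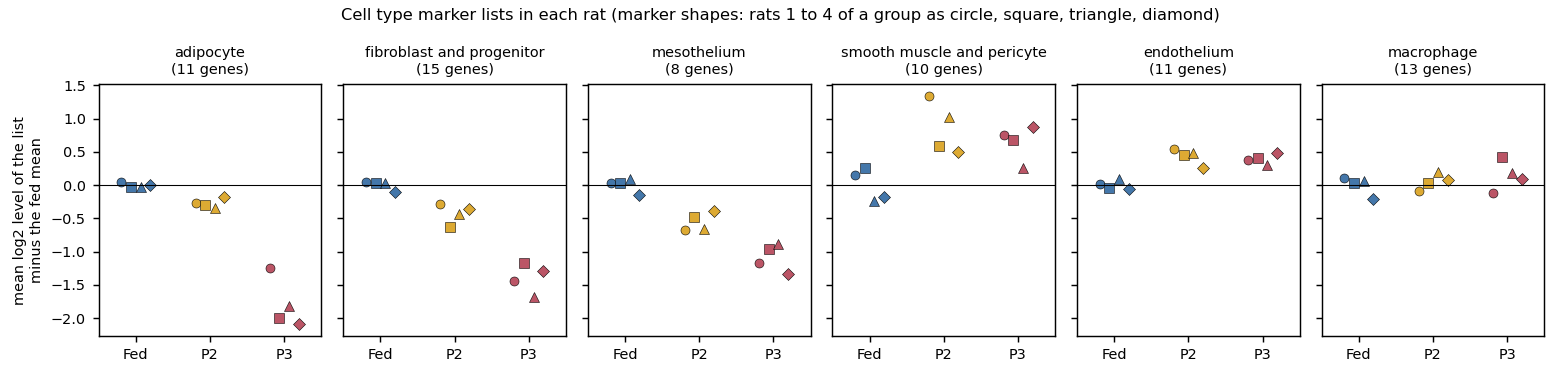
Mean log2 level of 6 cell type marker lists on each array minus the fed mean (vertical axis), in fed, P2 and P3 rats. Each marker is a rat. The adipocyte, fibroblast and mesothelial lists lie lowest in P3 rats, and the smooth muscle and endothelial lists lie higher in P2 and P3 than the fed mean.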

How the data were processed

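The authors deposited 1 table of log2 expression levels per probe set, made with RMA, GCOS and Affymetrix Expression Console 1.1 per the submitters' processing notes. RMA corrects background, quantile-normalises arrays and summarises probes. The library version was not given in the sources used here. The table held 29215 probe sets: 15310 named 1 gene, 323 several and 13582 none in the platform annotation. The brightest probe set per gene by mean over the 12 arrays gave 14506 genes. Groups and rat numbers came from the sample titles. P-values measure the spread between rats, and the number of arrays limits the precision.

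All 12 arrays entered 1 fit (lmFit and eBayes, limma 3.58.1, R 4.3.3) with a mean per group, and p-values were Benjamini-Hochberg adjusted over all genes. The code was tested on simulated data. Errors are SE of the fit or SD over 4 rats. Genes called with a log2 difference of at least 0.5 were described rat by rat, and up to 4 genes were named per pathway list and 3 per marker list. Some others were named after their values were seen. Members and lists were chosen with earlier results of these data known. The alternatives were other scaling, a filter on dim genes, mean probe sets, another variance prior, fewer groups, the rat number as a block, and each rat left out. Python 3.11.15, pandas 2.3.3 and matplotlib 3.10.9 were also used. Scan dates were not used.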

Additional observations from a re-analysis of the deposited data

Results flagged for a closer look

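In 9 of 111 sets of 4 values (37 genes in 3 groups), 1 rat stood apart from the other 3, by a gap to its nearest neighbour that exceeded Dixon's critical share of the group's range. Chance alone is expected to flag about 1 in 20 sets. P3 rat 3 was the high value in 3 of them, namely Fzd9 (5.83, next 5.34, gap share 0.9), Wnt6 (6.31, next 6.01, 0.864) and Wnt9b (6.88, next 6.48, 0.939). P2 rat 1 was the high value for both co-receptors, Lrp5 (8.13, next 7.93, 0.832) and Lrp6 (10.46, next 9.99, 0.837). Without any 1 rat, P2 rat 1 included, the P2 minus fed call of Lrp6 held. Wnt6 was also high in P2 rat 3 (6.13, next 5.98, 0.869). Among fed rats, rat 4 was low for Dkk2 (7.31, next 7.68, 0.969) and high for Wnt5b (5.89, next 5.81, 0.862), and rat 2 was high for Wnt4 (6.01, next 5.66, 0.913). No cause was tested.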

How the results depend on the processing

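Of 49 calls of the 37 genes over the 4 comparisons, 35 held in every one of the 20 alternatives in which they could be tested, and no called difference changed sign. With arrays centred on their medians, which moved P3 arrays by 0.155 relative to fed arrays, 14 members were higher in P3 against fed (7 as deposited) and 4 in P3 against P2 (0 as deposited). Over all genes the same centring gave 6115 higher in P3 against fed (3066) and 3115 in P3 against P2 (1853), and the share of calls that were higher moved to 53% (38.4%) in P2 against fed, 69.6% (46.5%) in P3 against fed and 64.9% (45.8%) in P3 against P2. Without the dimmest 40% of genes 4 members were higher in P3 against fed, and with quantile normalisation 3 were higher in P3 against P2. Leaving out 1 rat at a time gave 4 (without fed rat 4) to 10 members higher in P3 against fed, 0 to 1 (without P2 rat 1 or P3 rat 2) in P3 against P2, and 0 (without P2 rat 2) to 1 whose later step was the higher one. For that contrast it gave 594 to 1147 genes higher and 515 to 943 lower (997 and 829 reported), with 594 without P2 rat 1, 609 without P2 rat 2 and 515 without P2 rat 1. The rat numbers of the titles gave no clear sign of pairing. Correlations of same-numbered deviations lay between -0.155 and 0.188 and exceeded 0.1 in 4 of 12 pairs. Low correlations cannot show that rats were not matched or handled in sets. With the number as a replicate block, 9 members were higher and 10 lower in P3 against fed, and 6 and 3 in P2 against fed. The block added calls of Sfrp4 in P2 and of Fzd3, Fzd6 and Sfrp5 in P3 against fed, and ended that of Dkk2 in P3 against fed. All members had 1 probe set, so averaging probe sets changed only the genes beside them. The weak signal of 11 members limits what can be said of them.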
